A study of Mus musculus with 7 samples.

Results

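The 10 genes described here encode signals that organise lymphoid tissue and keep B cells alive. They are Tnfsf13b (BAFF), Tnfsf13 (APRIL) and their receptors Tnfrsf13b (TACI) and Tnfrsf13c (BAFF receptor), the lymphotoxins Lta and Ltb, the chemokine Cxcl13 with its receptor Cxcr5, and the chemokines Ccl19 and Ccl21a. They were taken by symbol from a list, and all 10 were found among the 28233 genes of the expression table. The samples were 7 whole tumours that the mouse melanoma line B16mhgp100 (spelled B16mghp100 in the sample descriptions) formed under the skin of C57BL/6 mice, each sequenced for polyadenylated RNA. Tumours Cr1l 1 to Cr1l 4 over-expressed Cr1l, which encodes the complement inhibitor Crry, and tumours Vec 5 to Vec 7 carried the vector. All mice of both groups received an antibody against PD-1 at 200 µg per dose, first on day 10 after the cells were injected, 2 times a week for 4 doses, and the tumours were collected 1 day after dosing ended. The sources used here do not give the promoter of the construct, the number of cell clones behind each group or the age of the mice. The labels number the tumours as separate samples but do not say that each came from its own mouse, so p-values measure the spread between these tumours. Vec 5, Vec 6 and Vec 7 are titled Vec, Vec21 and Vec22, and the labels do not say what the added numbers mark.

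BAFF and APRIL are ligands of the tumour necrosis factor family, made largely by myeloid cells. BAFF sustains mature B cells through the BAFF receptor, and both ligands bind TACI on B cells and BCMA on plasma cells. Lymphotoxin alpha and beta form a membrane complex on lymphocytes that signals through the lymphotoxin beta receptor on stromal cells and the non-canonical NF-kB pathway. In lymphoid organs this signal maintains the chemokines CXCL13, which draws CXCR5-bearing B cells and follicular helper T cells, and CCL19 and CCL21, which draw CCR7-bearing T cells and dendritic cells. The same genes mark tertiary lymphoid structures, the lymphoid aggregates that can form in tumours.

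Levels are given as TPM, a unit scaled to transcript length and to a common total, whose sum over all genes was 993520 to 996031 per tumour. TPM keeps no depth, so the read number behind each value is unknown. Cr1l itself stood at 76.37 to 83.57 TPM in the 4 Cr1l tumours and 46.29 to 54.94 TPM in the 3 Vec tumours, on the side each label gives. The melanocyte gene Pmel stood at 2950.41 to 7812.92 TPM in all 7. Some tumours stood apart. The 7 melanocyte markers summed to 8872 TPM in Cr1l 3 and 10160 TPM in Cr1l 4, the lowest levels, against 12900 to 20010 TPM in the other 5. The summed level of 12 macrophage and monocyte markers was 3770 TPM in Cr1l 3 and 3208 TPM in Cr1l 4, against 389.4 to 1143 TPM in the other 5. That of 8 keratinocyte markers was 1043 TPM in Vec 6, and the red cell markers summed to 41290 TPM in Vec 6 and 9694 TPM in Vec 7, against 106 to 416.5 TPM elsewhere. In whole tumours, a change in the number of cells of a type and a change in RNA per cell cannot be told apart.

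Of the 10 genes, 9 had a higher mean in Cr1l tumours and 1, Ccl21a, a lower mean on the log2(TPM + 1) scale. Of the 7 members tested, 6 were higher, where 55.4% of all tested genes were. Tnfrsf13c counts among the 9 with a difference of 0.01, and its mean in TPM was lower with Cr1l (0.300 against 0.323). Without Cr1l 3 and Cr1l 4 the sign reversed for Tnfsf13b, Tnfrsf13c, Lta and Ltb. Adjusted over the 14954 genes that averaged 1 TPM or more, 0 of the 7 members tested passed 0.05 by limma, where 0.0134% of all genes did. Unadjusted, Tnfsf13 was under 0.05 in the higher direction and Ccl21a in the lower one, and 9.49% and 6.07% of all tested genes were so. The groups did not overlap for Tnfsf13 and Cxcr5, both higher in Cr1l tumours, and for Ccl21a, which was lower, against 9.29% and 6.67% of the tested genes in the same directions. Cxcr5 was not among the genes tested. The authors' deposited table, made with DESeq2, called 3 members higher (Tnfsf13, Tnfrsf13b and Cxcr5) and 1 lower (Ccl21a), where 4.74% and 2.27% of its genes with an adjusted p were called. The authors' deposited table did not call the other 6 members, whose adjusted p ran from 0.145 (Cxcl13) to 0.943 (Tnfrsf13c). Tnfrsf13c, Lta and Cxcr5 averaged under 1 TPM and were left out of the fit. Tnfsf13 and Ccl19 reached the filter only through Cr1l tumours and Ccl21a only through Vec tumours, so passing it already favours a difference in these 3.

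**Figure D1:**
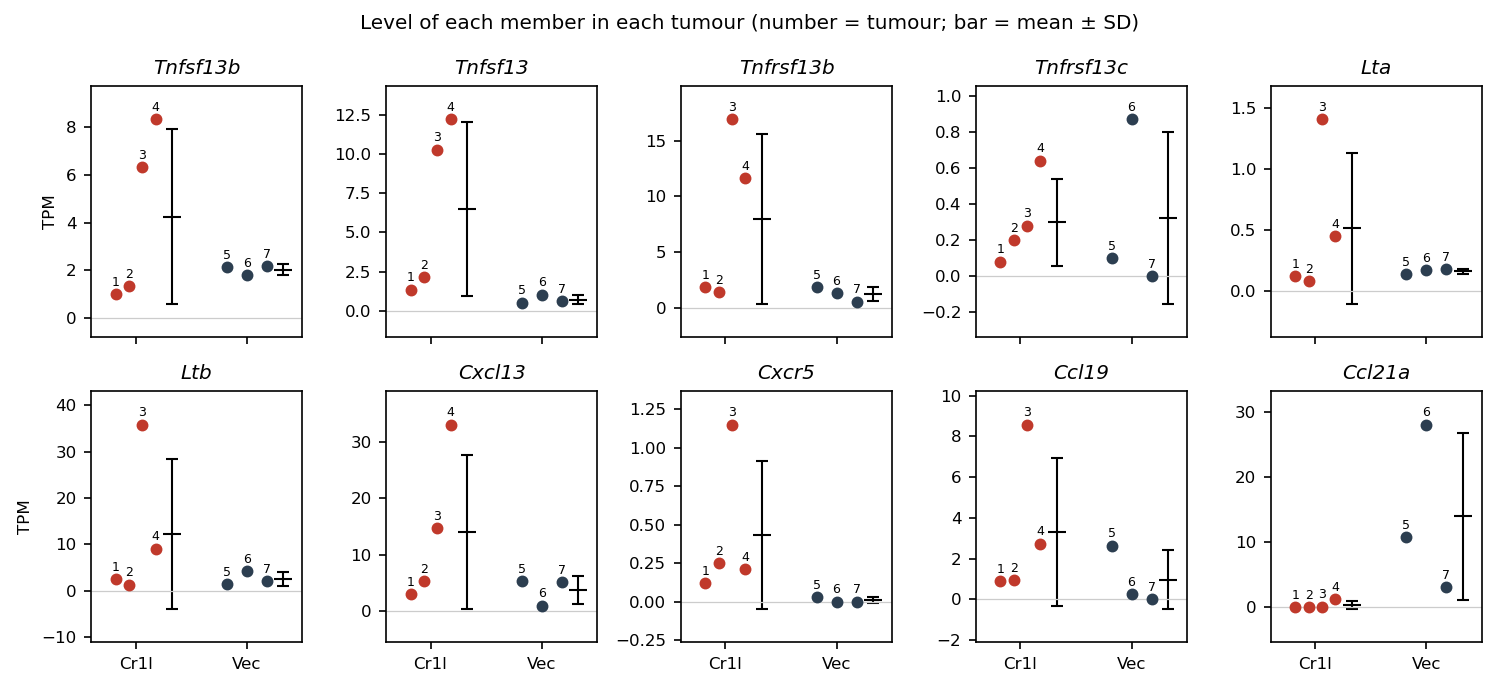
Level in TPM (vertical axis, linear, scaled per panel) of the 10 genes in the 4 Cr1l tumours (red) and 3 Vec tumours (dark), each point labelled with its tumour number, with the mean and SD of each group beside the points. For 8 genes the highest point is Cr1l 3 or Cr1l 4, and Ccl21a is near 0 in the Cr1l tumours and 3.12 to 28.13 TPM in the Vec tumours.

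The ligand genes of the B cell survival system had different orders across tumours. Tnfsf13, which encodes APRIL, stood at 1.36, 2.14, 10.29 and 12.22 TPM in Cr1l 1 to Cr1l 4 and at 0.53, 1.04 and 0.61 TPM in Vec 5 to Vec 7. Every Cr1l tumour lay above every Vec tumour (not so once the overlapping gene Tnfsfm13 was added), with Cr1l 3 and Cr1l 4 far above the rest. The means were 6.50 ± 5.55 TPM (SD, n = 4) with Cr1l and 0.727 ± 0.274 TPM (SD, n = 3) with vector. This was a difference of 1.75 on the log2(TPM + 1) scale (SE 0.64) with an adjusted p of 0.273 by limma. The exact permutation test over the 35 ways of dividing 7 tumours into 4 and 3 returned p = 0.0857 (two-sided), where 0.0286 is the smallest possible. It was run on each of the 10 genes and is given unadjusted. The authors' deposited table put Tnfsf13 at a log2 fold change of 3.10 (adjusted p = 0.00619).

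Tnfsf13b, which encodes BAFF, stood at 0.98, 1.34, 6.34 and 8.34 TPM with Cr1l, against 2.13, 1.78 and 2.17 TPM with vector. The Vec values lay close together, with Cr1l 1 and Cr1l 2 below all of them and Cr1l 3 and Cr1l 4 above. The means of 4.25 ± 3.66 TPM (SD, n = 4) with Cr1l and 2.03 ± 0.215 TPM (SD, n = 3) did not differ beyond that spread (log2 difference 0.48, SE 0.57, adjusted p = 0.686 by limma). Without Cr1l 3 and Cr1l 4 the log2 difference of Tnfsf13b was -0.49, while that of Tnfsf13 was 0.67. The transcript ratio of APRIL to BAFF, computed after the values had been seen and therefore not tested, was 1.39, 1.6, 1.62 and 1.47 with Cr1l, against 0.249, 0.584 and 0.281 with vector. Counted by these 2 genes alone, APRIL transcripts exceeded BAFF transcripts in all 4 Cr1l tumours and were fewer in all 3 Vec tumours. The ratio of Cr1l 1 and Cr1l 2 was like that of Cr1l 3 and Cr1l 4, although both ligands were several times lower there.

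Tnfsf13 overlaps the joint gene Tnfsfm13, which spans Tnfsf12 and Tnfsf13 on chromosome 11, and reads of the shared part can be assigned to either. Tnfsfm13 stood at 1.93, 3.51, 7.38 and 10.12 TPM with Cr1l, against 3.33, 2.11 and 2.63 TPM with vector. With both summed before the fit, an alternative added after seeing the data, the log2 difference of Tnfsf13 was 1.26 (adjusted p = 0.337 by limma). The sums were 3.29, 5.65, 17.7 and 22.3 TPM with Cr1l, against 3.86, 3.15 and 3.24 TPM with vector. The groups then overlapped, with Cr1l 1 below Vec 5. The ratio of this sum to Tnfsf13b was 3.36, 4.22, 2.79 and 2.68 with Cr1l, against 1.81, 1.77 and 1.49 with vector. It was above 1 in all 7 tumours, so that APRIL exceeding BAFF in Cr1l tumours alone holds only without Tnfsfm13, while every Cr1l ratio was above every Vec ratio either way. Such separation was not particular to APRIL and BAFF. Differences in log2(TPM + 1) between tested members did not overlap for 9 of 21 pairs. Of these, 6 held Ccl21a, which already separated the groups alone. Among the other 15 pairs, 3 separated, namely Tnfsf13b with Tnfsf13, with Tnfrsf13b and, narrowly, with Cxcl13. The share that separated over all pairs of genes was not computed, so these counts cannot be read as many or few.

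**Figure D2:**
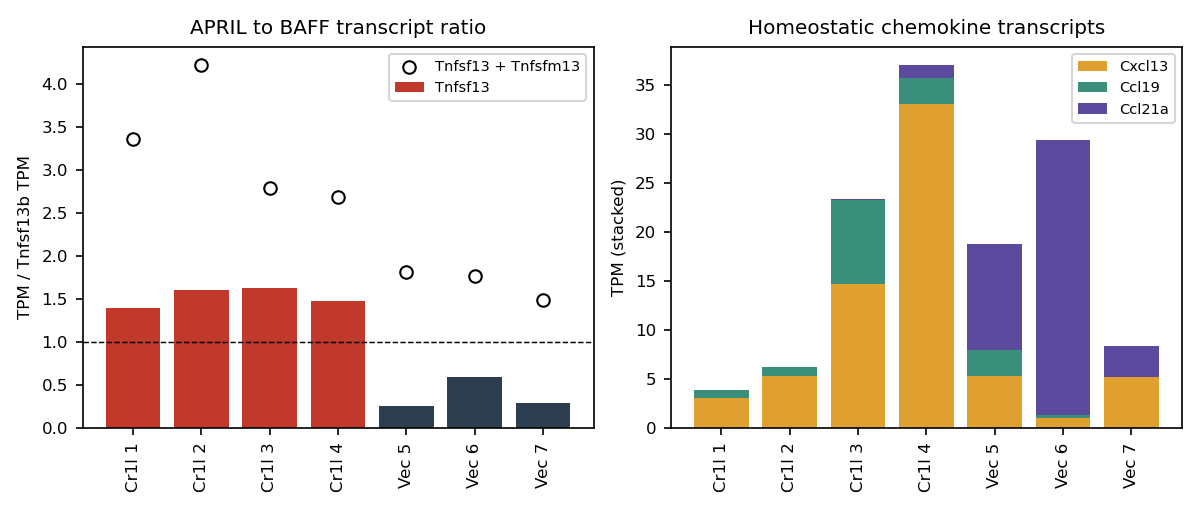
Left, the ratio of Tnfsf13 (bars, Cr1l red, Vec dark) or of Tnfsf13 and Tnfsfm13 summed (open points) to Tnfsf13b TPM in each tumour, with a dashed line at equal levels. Right, the TPM of Cxcl13, Ccl19 and Ccl21a stacked for each tumour. The ratio of Tnfsf13 alone is above 1 in every Cr1l tumour and below 1 in every Vec tumour, that of the sum is above 1 in all 7, and Ccl21a takes 37.5% to 95.8% of the stack in Vec tumours and at most 3.43% in Cr1l tumours.

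Among the receptors, Tnfrsf13b, which encodes TACI, was the more abundant. It stood at 1.88, 1.44, 16.92 and 11.62 TPM with Cr1l, against 1.86, 1.35 and 0.55 TPM with vector. Cr1l 1 was level with the highest Vec tumour, Cr1l 2 lay within the Vec range, and Cr1l 3 and Cr1l 4 lay far above it. The means were 7.97 ± 7.60 TPM (SD, n = 4) with Cr1l and 1.25 ± 0.660 TPM (SD, n = 3) with vector. This was a log2 difference of 1.53 (SE 0.74, adjusted p = 0.354 by limma). Without Cr1l 3 and Cr1l 4 the difference was 0.28. The authors' deposited table called it higher, at a log2 fold change of 2.65 (adjusted p = 0.0352).

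Tnfrsf13c, which encodes the BAFF receptor of mature B cells, stayed under 1 TPM in every tumour. It stood at 0.08, 0.20, 0.28 and 0.64 TPM with Cr1l, against 0.10, 0.87 and 0.00 TPM with vector. The groups overlapped throughout, with the highest value in Vec 6. The log2 difference was 0.01 (exact permutation p = 0.943, two-sided), and its sign changed with the setting. Tnfrsf17, the BCMA receptor of plasma cells, was also low, at 0.13 to 1.56 TPM against 0.00 to 0.45 TPM. B cell markers were low. TACI exceeded Ms4a1 on the TPM scale in every tumour, but it did not exceed every B cell marker. Cd22 stood at 0.97, 2.38, 7.05 and 5.77 TPM with Cr1l, against 0.87, 0.46 and 0.65 TPM with vector. Ebf1 stood at 1.57, 2.19, 7.10 and 7.28 TPM with Cr1l, against 1.73, 1.51 and 0.26 TPM with vector. Both were above TACI in Cr1l 2, as was Ebf1 in Vec 6 and Cd22 in Vec 7. Ms4a1, which encodes CD20, was at 0.57, 0.06, 0.79 and 0.31 TPM with Cr1l and was listed at 0 in all 3 Vec tumours. The 12 B cell markers summed to 7.85 to 34.37 TPM with Cr1l and 3.63 to 6.13 TPM with vector. The part of cell numbers in the receptor values was not tested.

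The lymphotoxin genes lie beside Tnf on chromosome 17. Ltb, the membrane-anchored subunit, stood at 2.47, 1.34, 35.82 and 9.10 TPM with Cr1l, against 1.38, 4.22 and 2.07 TPM with vector. Cr1l 3 alone held most of the Cr1l signal, and Cr1l 1 and Cr1l 2 lay within or below the Vec range. The means of 12.2 ± 16.1 TPM (SD, n = 4) with Cr1l and 2.56 ± 1.48 TPM (SD, n = 3) did not differ beyond this spread (log2 difference 1.14, SE 0.89, adjusted p = 0.535 by limma). Without Cr1l 3 and Cr1l 4 the difference was -0.24. Lta, the subunit shared by soluble and membrane lymphotoxin, stood at 0.12, 0.08, 1.41 and 0.45 TPM with Cr1l, against 0.14, 0.17 and 0.18 TPM with vector. Again Cr1l 3 was highest, and Cr1l 1 and Cr1l 2 were below every Vec tumour (log2 difference 0.30, exact permutation p = 0.486, two-sided). Ltb exceeded Lta in each tumour, 9.86-fold to 25.4-fold on the TPM scale. T cell markers had a like order, with 10 genes summing to 236.1 TPM in Cr1l 3, 86.44 TPM in Cr1l 4 and 18.3 to 48.3 TPM in the other 5 tumours. Their part in the lymphotoxin values was not tested.

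Cxcl13, the B cell chemokine of follicles, stood at 3.00, 5.31, 14.73 and 33.08 TPM with Cr1l, against 5.32, 0.98 and 5.20 TPM with vector. Here Cr1l 4 was the highest, Cr1l 1 and Cr1l 2 lay inside the Vec range, and Vec 6 was the lowest of all. The means were 14.0 ± 13.7 TPM (SD, n = 4) with Cr1l and 3.83 ± 2.47 TPM (SD, n = 3), with a log2 difference of 1.34 (SE 0.77, adjusted p = 0.412 by limma). The difference was 0.24 without Cr1l 3 and Cr1l 4. Its receptor gene Cxcr5 was close to the floor of the table. It stood at 0.12, 0.25, 1.15 and 0.21 TPM with Cr1l, against 0.03, 0.00 and 0.00 TPM with vector. All 4 Cr1l values lay above all Vec values, and Cr1l 3 alone passed 1 TPM. The log2 difference of 0.45 had an exact permutation p of 0.0571 (two-sided), and the fit with no filter on low values gave an adjusted p of 0.493 by limma. The authors' deposited table gave Cxcr5 a mean normalized count of 7.49 and called it higher with an adjusted p of 0.0435. Some listed markers of follicular dendritic cells, the main source of CXCL13 in lymph nodes, were near 0, but these are not specific. Cr2 is also among the B cell markers and Madcam1 among the lymphatic and high endothelial markers used here. Cr2 was at 0.42 TPM or less in every tumour. Madcam1 was at 0.10 to 0.43 TPM with Cr1l and listed at 0 in every Vec tumour. The 5 markers measured of that list summed to 125.7 to 142.4 TPM with Cr1l and 109.8 to 135.4 TPM with vector. Most of each sum was Mfge8 alone, at 119.89 to 127.54 TPM with Cr1l and 90.72 to 122.67 TPM with vector. Il21, the cytokine of follicular helper T cells, was at 0.29 TPM or less, but other markers of these cells were not near 0. Bcl6 stood at 4.25 to 11.51 TPM with Cr1l and 3.13 to 6.92 TPM with vector. Pdcd1 stood at 0.86 to 8.40 TPM with Cr1l and 0.98 to 4.56 TPM with vector. The 8 listed markers of these cells summed to 7.47, 7.59, 38.09 and 24.7 TPM with Cr1l, against 17.29, 9.7 and 5.15 TPM with vector.

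Ccl19 and Ccl21a are neighbours on chromosome 4 and share the receptor CCR7, but their values went in opposite directions. Ccl19 stood at 0.89, 0.93, 8.58 and 2.73 TPM with Cr1l, against 2.63, 0.26 and 0.00 TPM with vector. The groups overlapped, with Vec 5 level with Cr1l 4 (log2 difference 1.03, SE 0.69, adjusted p = 0.477 by limma). Without Vec 6 and Vec 7 the difference was -0.10. Ccl19-ps2, a pseudogene copy to which reads of Ccl19 may be assigned, stood at 1.65, 3.16, 12.32 and 8.30 TPM with Cr1l, against 2.42, 1.66 and 1.03 TPM with vector. With both summed, an alternative added after seeing the data, the log2 difference was 1.33 (adjusted p = 0.365 by limma).

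Ccl21a stood at 0.00, 0.00, 0.09 and 1.27 TPM in Cr1l 1 to Cr1l 4 and at 10.80, 28.13 and 3.12 TPM in Vec 5 to Vec 7. The lowest Vec tumour was above the highest Cr1l tumour, and Cr1l 4 was the 1 Cr1l tumour above 0.09 TPM. The means were 0.340 ± 0.621 TPM (SD, n = 4) with Cr1l and 14.0 ± 12.8 TPM (SD, n = 3) with vector. This was a log2 difference of -3.16 (SE 0.64, adjusted p = 0.132 by limma, which does not pass 0.05). By the exact permutation test p was 0.0286 (two-sided), as low as these group sizes allow. In the authors' deposited table Ccl21a had a log2 fold change of -5.50 (SE 1.21) and an adjusted p of 6.46e-04. The difference was negative in all 17 alternative fits, from -5.46 to -2.47, with adjusted p of 0.114 to 0.623. It was -5.46 with a pseudocount of 0.1 in place of 1, -2.47 without Vec 6 and -3.49 without Cr1l 3 and Cr1l 4.

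The mouse genome holds several nearly identical Ccl21 copies, and the coding sequences of Ccl21a and Ccl21b were compared. Their untranslated parts and any other copies were not compared. In the GENCODE M21 transcripts (GRCm38, an older build than the authors' mm39) the coding sequences of Ccl21a and Ccl21b are 402 bases each and differ at 2 of them. The stretch that holds both differences, coding bases 61 to 220 counted from the A of the start codon, reads as follows, with the differing bases in capitals.
Ccl21a: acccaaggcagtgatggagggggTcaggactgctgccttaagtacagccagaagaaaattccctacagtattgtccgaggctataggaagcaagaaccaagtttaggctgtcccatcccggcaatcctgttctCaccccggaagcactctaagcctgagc
Ccl21b: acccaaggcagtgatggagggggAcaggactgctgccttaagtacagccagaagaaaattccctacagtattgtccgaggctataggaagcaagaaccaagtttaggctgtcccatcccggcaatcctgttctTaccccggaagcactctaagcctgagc
The first difference, T84A, leaves the protein as it is, and the second, C194T, gives S65L, the serine and leucine forms of CCL21. The longest identical stretch is 208 bases, so many coding reads cannot separate the copies. Ccl21b was listed at 0 in each of the 4 Cr1l tumours and in Vec 7, and at 1.18 and 5.69 TPM in Vec 5 and Vec 6. With both copies summed, an alternative added after seeing the data, the log2 difference was -3.29 (adjusted p = 0.138 by limma).

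Levels of other cell types beside Ccl21a were uneven. The 8 keratinocyte markers summed to 1.61, 1.00, 90.89 and 2.77 TPM with Cr1l, against 75.5, 1043 and 9.50 TPM with vector, so Vec 6 was highest in both. In Cr1l 1, Cr1l 2 and Cr1l 4, 5, 5 and 4 of the 8 were listed at 0. Cr1l 3 had more keratinocyte signal than Vec 5 and Vec 7 and a Ccl21a level of 0.09 TPM. Red cell markers were highest in Vec 6 and Vec 7, while Vec 5, at 416.5 TPM, was near the 106 to 388.5 TPM of the Cr1l tumours and had 10.80 TPM of Ccl21a. The 8 lymphatic and high endothelial markers summed to 48.7, 59.22, 162.8 and 140.0 TPM with Cr1l, against 81.84, 44.6 and 51.01 TPM with vector. Pdpn and Lyve1 made most of each sum. Lyve1 stood at 4.32, 15.34, 97.56 and 55.82 TPM with Cr1l, against 18.24, 7.55 and 7.22 TPM with vector. Pdpn stood at 39.15, 39.83, 56.99 and 81.16 TPM against 58.18, 30.93 and 36.09 TPM. Of the 5 tested genes of the list, 2 had positive and 3 negative differences. Prox1, a gene of lymphatic endothelium, stood at 2.48, 2.38, 0.99 and 1.11 TPM with Cr1l, against 1.57, 2.08 and 1.87 TPM with vector. Its groups overlapped, and it was lowest in Cr1l 3 and Cr1l 4, where Lyve1 was highest. For the receptors of CCL21 the groups overlapped. Ccr7 stood at 2.72, 2.57, 20.29 and 10.02 TPM against 6.96, 1.68 and 0.44 TPM (log2 difference 1.25, adjusted p = 0.447 by limma). Ackr4, the scavenging receptor of CCL19 and CCL21, averaged under 1 TPM. It stood at 0.51, 0.37, 0.37 and 0.26 TPM with Cr1l, against 0.52, 2.02 and 0.05 TPM with vector (log2 difference -0.30). Like Ccl21a it was highest in Vec 6, but unlike Ccl21a it was lowest in Vec 7. The part of these cell types in the Ccl21a values was not tested.

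**Figure D3:**
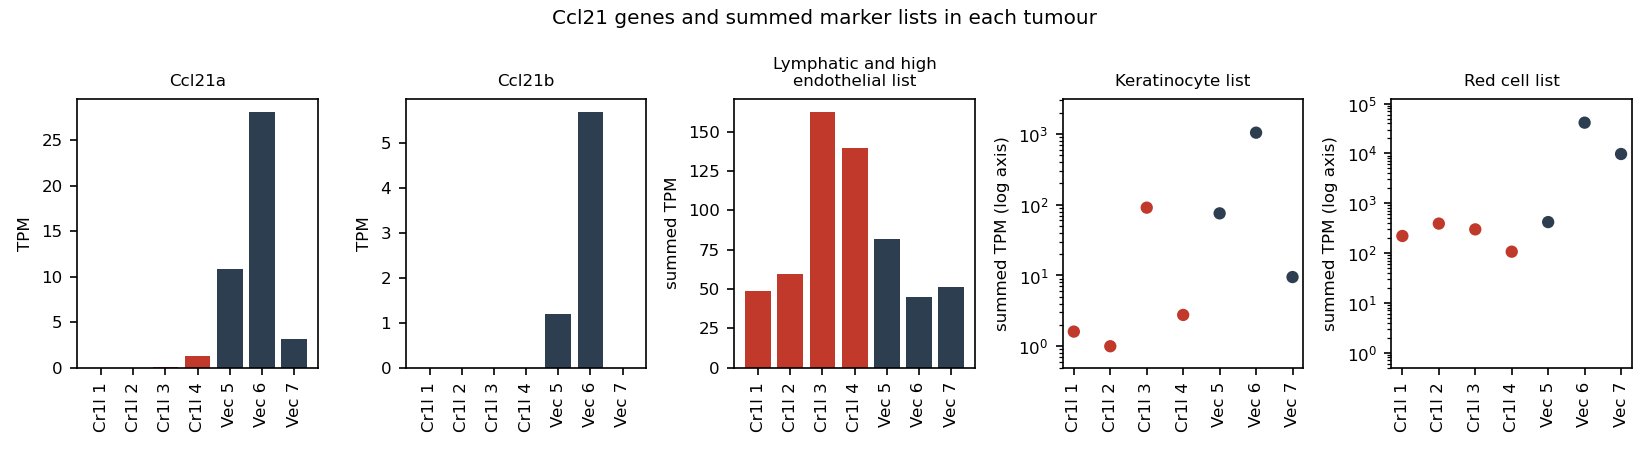
TPM of Ccl21a and Ccl21b and summed TPM of the lymphatic and high endothelial, keratinocyte and red cell lists in each tumour (Cr1l red, Vec dark), with linear axes for the bars and log axes for the points. Ccl21a is 3.12 to 28.13 TPM in the Vec tumours and at most 1.27 TPM in the Cr1l tumours, and Cr1l 3 has 90.89 TPM of keratinocyte markers beside 0.09 TPM of Ccl21a.

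Partners of these genes were read from lists made with earlier results of the data known. In the list of the lymphotoxin and non-canonical NF-kB pathway, 0 of 18 tested genes passed 0.05 adjusted over all genes by limma, and 6 were higher and 0 lower at an unadjusted p under 0.05 (9.49% and 6.07% of all genes). Differences were positive for 15 of the 18, with a median of 0.623, while 55.4% of all tested genes were positive with a median of 0.0541. The lymphotoxin beta receptor gene Ltbr was abundant, with groups that overlapped, at 73.76 to 100.18 TPM against 82.53 to 104.16 TPM (log2 difference -0.12, SE 0.15, adjusted p = 0.702 by limma). Tnfsf14, which encodes LIGHT, the other ligand of that receptor, stood at 0.75, 1.02, 6.37 and 3.97 TPM with Cr1l, against 0.35, 0.43 and 0.09 TPM with vector. Its groups did not overlap (log2 difference 1.40, SE 0.54, adjusted p = 0.291 by limma). Tnfsf14 reached the filter only through Cr1l tumours, averaging 3.03 TPM against 0.290 TPM with vector, so passing it already favours a difference. The counts of its list include it. The authors' deposited table called Tnfsf14 higher, at a log2 fold change of 3.34 (adjusted p = 0.00775).

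Transducers of the pathway had differences of the same sign. Relb, a subunit of the non-canonical NF-kB factor, stood at 12.73, 13.21, 32.90 and 20.65 TPM against 11.42, 11.29 and 8.54 TPM, without overlap (log2 difference 0.78, SE 0.33, adjusted p = 0.314 by limma). Map3k14, the NF-kB-inducing kinase, and Nfkb2, the partner of Relb, had log2 differences of 0.63 and 0.37, with groups that overlapped. Traf2, an adaptor of tumour necrosis factor receptors, stood at 17.51 to 22.18 TPM against 8.77 to 14.46 TPM, without overlap (log2 difference 0.61, SE 0.20, adjusted p = 0.251 by limma). Unlike the ligands, it was about as high in Cr1l 1, at 18.90 TPM, as in Cr1l 4, at 17.60 TPM. Tnfrsf14, a receptor of LIGHT, and Cd40, the receptor of T cell help on B cells, had log2 differences of 1.28 and 1.69 (adjusted p = 0.260 and 0.306 by limma). The authors' deposited table called Cd40 higher, at a log2 fold change of 2.43 (adjusted p = 0.0284). It did not call Relb, Map3k14, Nfkb2, Traf2 or Tnfrsf14.

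Of the BAFF and APRIL partners, 0 of 11 tested genes passed adjusted over all genes by limma. At an unadjusted p under 0.05, 1 was higher and 1 lower, as were 9.49% and 6.07% of all tested genes. The median difference was 0.316, against 0.0541 for all tested genes. The lower one was Tnfrsf12a, which encodes Fn14, the receptor of the APRIL-neighbouring ligand TWEAK. It stood at 98.50, 116.81, 78.23 and 88.45 TPM with Cr1l, against 214.68, 168.27 and 199.43 TPM with vector. The groups lay well apart and the 4 Cr1l values were close together (log2 difference -1.02, SE 0.16, adjusted p = 0.1004 by limma). The authors' deposited table put it at a log2 fold change of -1.08 (adjusted p = 5.27e-06). Tnfsf12, which encodes TWEAK, stood at 8.52, 5.79, 29.45 and 39.86 TPM against 10.15, 4.61 and 4.54 TPM (log2 difference 1.26, adjusted p = 0.375 by limma).

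Of the homeostatic chemokine partners, 0 of 9 tested genes passed by limma. All 9 had positive differences with a median of 1.25, where 55.4% of all tested genes were positive with a median of 0.0541. By limma, 4 were higher at an unadjusted p under 0.05, as were 9.49% of all tested genes. Il7r, the receptor of the lymphocyte survival cytokine IL-7, stood at 3.37, 2.04, 16.76 and 16.35 TPM against 2.05, 0.84 and 0.83 TPM (log2 difference 1.88, SE 0.67, adjusted p = 0.270 by limma). Ccl22, a chemokine of mature dendritic cells, stood at 1.89, 2.68, 16.96 and 7.83 TPM against 1.02, 0.88 and 0.42 TPM, without overlap (log2 difference 1.87, SE 0.61, adjusted p = 0.251 by limma). With means of 7.34 TPM with Cr1l and 0.773 TPM with vector, it reached the filter only through Cr1l tumours, which already favours a difference. The counts of its list include it. Cxcr4, the receptor of CXCL12, had a log2 difference of 1.49 (adjusted p = 0.273 by limma). The authors' deposited table called Il7r higher, at a log2 fold change of 2.96 (adjusted p = 0.00351). It also called Ccl22 higher, at 3.21 (adjusted p = 0.0016), but did not call Cxcr4 (adjusted p = 0.122). Markers of myeloid and stromal cells were also high in Cr1l 3 and Cr1l 4. All 12 macrophage and monocyte markers had positive differences, and none was listed at 0 in any tumour. All 9 fibroblast markers did as well, summing to 744.2, 1128, 6117 and 4884 TPM with Cr1l, against 1194, 465.9 and 150.6 TPM with vector. So did all 9 tested dendritic cell markers, and the 10 listed summed to 74.58 to 287.5 TPM with Cr1l and 38.97 to 85.14 TPM with vector. The part of these cell types in the values of the members and partners was not tested.

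**Figure D4:**
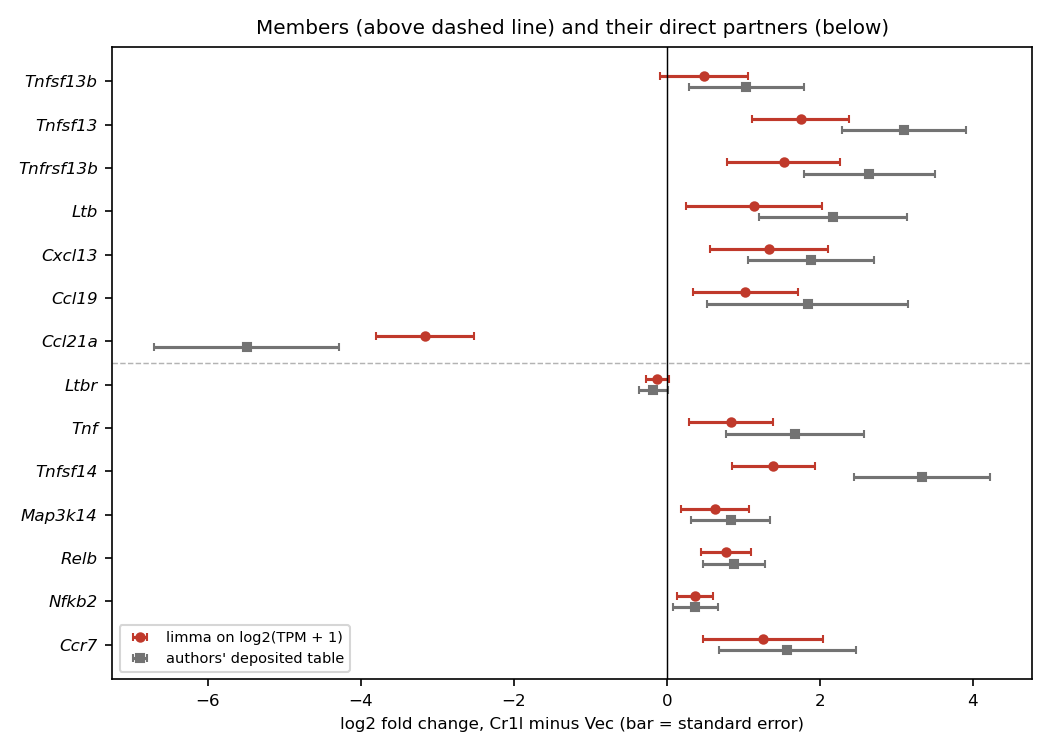
Log2 fold change, Cr1l minus Vec, of the 7 tested members (above the dashed line) and 7 direct partners (below), as points with standard errors, from limma on log2(TPM + 1) (red) and from the authors' deposited DESeq2 table (grey). Ccl21a lies far below 0 in both, at -3.16 and -5.50, and Ltbr lies near 0.

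Across the 7 tumours the tested members had 2 patterns. Pearson's r of log2(TPM + 1) between Ccl21a and the other 6 tested members was -0.50 to -0.15, and among those 6 it was 0.56 to 0.94. These values describe 7 points, of which Cr1l 3 and Cr1l 4 are far from the rest, and many genes share that order. Tnfrsf13b had r over 0.9 with 9.16% of all tested genes and Ccl21a with 0.675%. The genes closest to Tnfsf13 were Gm15675 (0.998), Mrgprf (0.995) and Rgs18 (0.994), and those closest to Tnfrsf13b were Myo1f (0.997), Rras (0.997) and Il16 (0.995). Gm28417 (0.985), Phf24 (0.985) and Phf11a (0.984) were closest to Tnfsf13b. For Ltb they were H2-M2 (0.996), Plxdc1 (0.994) and Ptprcap (0.994), the last a partner of the leukocyte phosphatase CD45. Cxcl13 was closest to Hmox1 (0.980), the haem oxygenase, Akr1c13 (0.976) and Arhgap18 (0.973). Ccl19 was closest to Clec4n (0.990), the receptor Dectin-2 of myeloid cells, Cd27 (0.988) and Tcf4 (0.988). Ccl21a was closest to Snhg14 (0.986), Lrrfip2 (0.980) and Frat2 (0.980).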

How the data were processed

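The authors' deposited expression table holds log2(TPM + 1) per gene symbol and tumour, made with RSEM on mm39 per the submitters' processing notes (the sources used here name no version, aligner, annotation or read number). Poly-T selected, non-directional libraries were made, per the labels' protocols, so overlapping genes on opposite strands cannot be told apart. The authors' deposited DESeq2 table gives for each gene a normalized count averaged over tumours (a signal), a log2 fold change, Wald score, p-value and adjusted p-value. Its numerator was read as Cr1l, since Cr1l has 0.57 there and its fold changes correlate with those from TPM (Pearson's r = 0.879 across 14258 genes, which are not independent replicates). Symbols were matched to its Ensembl identifiers through a GRCm38 name table, which found all 10 members. The authors' deposited repertoire table holds numbers of receptor clones not scaled to depth.

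Here the logarithm was undone for levels. The 14954 genes that averaged 1 TPM or more were fitted by limma 3.58.1 (R 4.3.3) on the log2(TPM + 1) values (group as the 1 term, variance trend), two-sided, with Benjamini-Hochberg adjustment over all genes and a threshold of 0.05. The pseudocount understates changes of low genes. Single members were also compared by an exact permutation test. Alternatives were pseudocounts of 0.1 and 0.5, filters of 0.1 TPM and none, median-of-ratios scaling, no trend, array weights, leaving out tumours, and sums of near-identical genes (added after seeing the data). The members and lists were chosen with earlier results of these data known. Genes named beside the members are their direct partners, up to 3 further genes per partner list with the smallest p, up to 2 per marker list with the highest TPM, and the 3 genes most like each tested member in Pearson's r; Ccl21b, Ccl19-ps2, Tnfsfm13, Tnfsf12, Prox1, Ms4a1, Cr2, Madcam1 and Il21 were added after their values were seen. Figures were drawn with matplotlib 3.10.9.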

Additional observations from a re-analysis of the deposited data

Results flagged for a closer look

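Among the 4 Cr1l tumours, 1 value lay far from the other 3 on the log2(TPM + 1) scale for 3 of the 19 genes checked (the 10 members and 9 direct partners). Chance flags about 5% of such groups, and the genes share the same tumours. Cxcr5 was 1.15 TPM in Cr1l 3, against 0.12 to 0.25 TPM in the other Cr1l tumours. Nfkb2 was 40.93 TPM in Cr1l 3, against 22.32 to 23.85 TPM. Ccl21a was 1.27 TPM in Cr1l 4, against 0.00 to 0.09 TPM, and still lay below the 3.12 TPM of the lowest Vec tumour. Groups of 3 were not checked in this way.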

How the results depend on the processing

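No paired analysis was possible because the tumours of the 2 groups share no replicate numbers. In every setting 0 members passed the threshold by limma, and 0 genes did with no filter, against 2 of all genes in the chosen fit. All genes past the threshold numbered 6 and 4 with pseudocounts of 0.1 and 0.5, 10 with median-of-ratios scaling, 13 without trend, 14 with array weights (which stopped before convergence), 9 without Cr1l 3 and Cr1l 4, and 0 to 8 when 1 tumour was left out (0 without Cr1l 2, Vec 5 or Vec 6, 5 without Cr1l 3, 6 without Cr1l 4 and 8 without Vec 7). Tnfsf13, Tnfrsf13b, Cxcl13, Cxcr5 and Ccl21a kept their sign in all their settings. Without Cr1l 3 and Cr1l 4 the log2 difference reversed for Tnfsf13b (-0.489), Tnfrsf13c (-0.16), Lta (-0.0808) and Ltb (-0.24). It also reversed for Ccl19 without Vec 6 and Vec 7 (-0.103), and for Tnfrsf13c with median-of-ratios scaling (-0.00925) and without Cr1l 4 (-0.103), Vec 5 (-0.0905) or Vec 7 (-0.159), the range with 1 tumour left out being -0.159 to 0.292. Where 1 Vec tumour remained, it was assumed to vary like the Cr1l tumours. Members under the filter have no fit without trend or with array weights. Depth is unknown, so for Tnfrsf13c, Lta and Cxcr5 no counting error can be set beside values under 1 TPM.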

Other observations

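The numbers of receptor clones in the authors' deposited repertoire table can be read beside the survival signals, although they are not scaled to depth. Immunoglobulin heavy chain clones numbered 484, 147, 1567 and 470 with Cr1l (tumours 1 to 4), against 22, 0 and 6 with vector (tumours 5 to 7). Cr1l 1 and Cr1l 2 had 484 and 147 of them with 0.98 and 1.34 TPM of Tnfsf13b, less than any Vec tumour. Their Tnfsf13 levels of 1.36 and 2.14 TPM were above every Vec tumour, but with Tnfsfm13 added Cr1l 1 stood at 3.29 TPM, below the 3.86 TPM of Vec 5. Jchain, a gene of antibody-secreting cells, stood at 16.08, 7.74, 66.53 and 16.46 TPM against 0.79, 0.27 and 0.06 TPM.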
